A study of Homo sapiens with 10 samples.

Results

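EMBOW-F is the list of peak summits from anti-FLAG precipitation of tagged EMBOW, and 814 of its 93102 summits on chromosomes 1 to 22 and X had a WDR5 summit at most 500 bp away, in wild-type (WT) cells, in EMBOW knock-out (KO) cells or in both. These 814 coinciding summits were selected on the distance alone, so their number and the distances are given as a description. They made up 0.874% of EMBOW-F summits (exact 95% binomial interval 0.816 to 0.936%, which covers counting error only, as do all intervals here). Of the 814, 146 had a partner in both genotypes (17.9%, 15.4 to 20.7%), 313 in WT alone (38.5%, 35.1 to 41.9%) and 355 in KO alone (43.6%, 40.2 to 47.1%). From the side of WDR5, 454 of 17655 WT summits (2.57%) and 489 of 21053 KO summits (2.32%) had an EMBOW-F summit within the same distance.

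WDR5 is a WD40-repeat protein that holds together the COMPASS family of complexes, which methylate histone H3 at lysine 4 and act mostly at the starts of active genes. EMBOW is a microprotein, a short protein read from a small open reading frame, and is known as a binding partner of WDR5. The regions that flank human centromeres are largely made of repeated satellite DNA and hold few genes.

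The study used HEK293T, a human embryonic kidney line transformed with adenovirus DNA and SV40 large T antigen. Nuclei were digested with micrococcal nuclease before precipitation. The 3 groups used here were WT cells with anti-WDR5 antibody, EMBOW KO cells with the same antibody, and cells stably expressing EMBOW-FH with anti-FLAG beads. There was 1 library per group, so differences between lists have no replicate check and no p-value is given. Whether the KO line is 1 clone, and whether the cells with the tagged protein keep their own EMBOW, the labels do not say. Each summit is a single base with a score, the authors' own −log10 q value from peak calling, and total read counts per library were not used here. Whether a summit is in a list depends on the depth and threshold of that list, so a member with a partner in 1 genotype alone is not shown to differ between the genotypes.

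Most coinciding summits lay far from genes, in DNA whose sequence was not used here, but a few lay in the window that runs from 250 bases before to 25 bases after an annotated start. The sequences of 3 such windows are shown because they stand for the kinds of member found at genes: FAM230E, a long noncoding RNA gene with partners in both genotypes and a high EMBOW-F score, TOP2B, which encodes a type II DNA topoisomerase and has partners in both genotypes with a low EMBOW-F score, and CRISP2, which encodes a sperm-associated secretory protein and has a partner in KO alone. They are from RefSeq, build GRCh38.p14, 5′ to 3′ on the gene's strand. FAM230E is at chr22:18733685-18733959 on the plus strand, TOP2B at chr3:25664348-25664622 on the minus strand and CRISP2 at chr6:49713519-49713793 on the minus strand. In FAM230E and TOP2B the capitals run from the first to the last of the 3 summits (EMBOW-F, WT and KO). In CRISP2 the capital is the EMBOW-F summit, since the KO summit lay 126 bp past the start and outside the bases shown.
FAM230E: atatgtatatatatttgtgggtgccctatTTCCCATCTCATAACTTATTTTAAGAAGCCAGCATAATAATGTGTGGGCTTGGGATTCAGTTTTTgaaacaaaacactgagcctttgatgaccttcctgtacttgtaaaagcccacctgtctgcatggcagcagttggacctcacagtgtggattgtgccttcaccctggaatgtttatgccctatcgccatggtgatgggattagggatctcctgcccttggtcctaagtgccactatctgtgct
TOP2B: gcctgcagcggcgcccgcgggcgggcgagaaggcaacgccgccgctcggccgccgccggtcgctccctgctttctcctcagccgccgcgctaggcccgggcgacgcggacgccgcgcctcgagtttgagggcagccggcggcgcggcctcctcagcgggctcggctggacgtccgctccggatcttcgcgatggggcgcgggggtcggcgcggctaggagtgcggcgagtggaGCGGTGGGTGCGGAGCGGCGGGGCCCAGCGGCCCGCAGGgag
CRISP2: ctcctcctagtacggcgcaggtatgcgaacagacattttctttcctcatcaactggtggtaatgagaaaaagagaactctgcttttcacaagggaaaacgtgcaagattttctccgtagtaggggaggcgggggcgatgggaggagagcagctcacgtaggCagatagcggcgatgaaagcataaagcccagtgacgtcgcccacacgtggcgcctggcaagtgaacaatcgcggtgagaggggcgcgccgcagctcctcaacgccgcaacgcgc
The 3 summits spanned 65 bases at FAM230E and 39 bases at TOP2B. At TOP2B the EMBOW-F summit lay 17 bp before the start, the WT summit 21 bp after it and the KO summit 17 bp after it. Over the whole 300-base windows of the table, GC content was 44.3% with 1 CpG at FAM230E, 57.3% with 24 CpG at CRISP2 and 80.0% with 53 CpG at TOP2B. The median GC was 71.7% for the 1549 windows with a WT WDR5 summit and 72.3% for the 1666 with a KO summit. TOP2B lay above the upper quartile of both sets, 76.3% and 76.7%. The 90 windows with any EMBOW-F summit had a median of 46.8%, and all 34961 windows 58.7%. The E-box letters CACGTG read the same on both strands and are bound by MYC, a factor known to bind WDR5. They stood in the window of CRISP2, in that of HNRNPDL, which also had a member at its end, and in 7.27% of all windows. The share was 11.2% of windows with a WT WDR5 summit, 11.0% with a KO summit and 4.44% with an EMBOW-F summit.

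The EMBOW-F summits gathered close around WDR5 summits, within about 200 bp. The median distance from a coinciding EMBOW-F summit to the nearest WDR5 summit was 63.0 bp (95% interval of the median 54.0 to 72.0, n = 814), with quartiles at 13.2 and 169.5 bp. Within 100 bp lay 508 of the 814 (62.4%), within 10 bp 173 (21.3%), and 22 shared the same base. In bins of 100 bp, the first bin held 307 EMBOW-F summits by distance to WT WDR5 and 313 by distance to KO WDR5. The second bin held 71 and 74. From there to 500 bp the counts were 22 to 32 per bin for WT and 33 to 41 for KO, inside the range of the 15 bins from 501 to 2000 bp, which was 21 to 40 for WT and 17 to 42 for KO. The gathering of the summits therefore showed in the first 200 bp, which held 634 of the 814, while the 180 members beyond it were no denser than summits further away. Of those 180, 8 had partners in both genotypes, 71 in WT alone and 101 in KO alone.

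**Figure D1:**
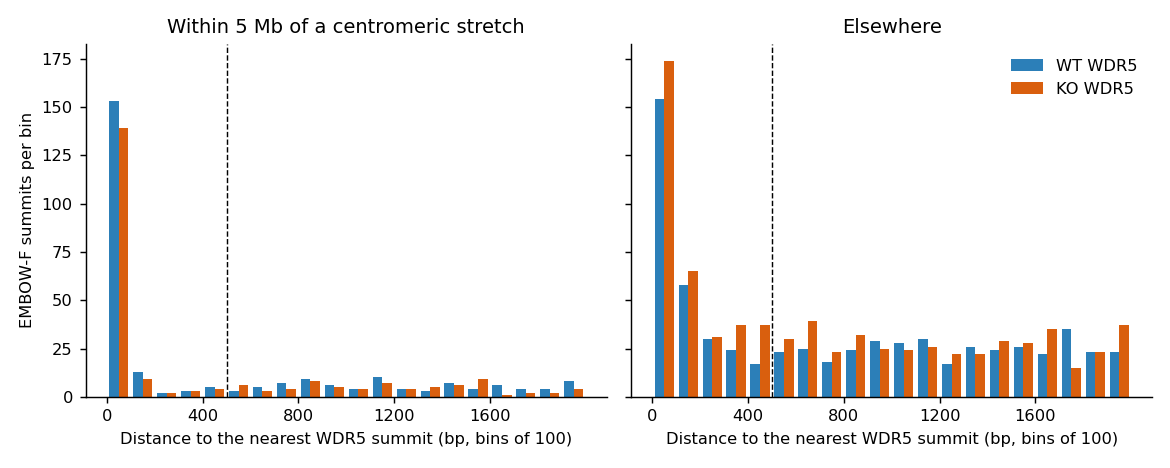
EMBOW-F summits per bin of 100 bp of distance to the nearest WDR5 summit (x axis, bp), WT in blue and KO in orange, within 5 Mb of a centromeric stretch (left) and elsewhere (right); the dashed line marks the 500 bp bound. The first bin stands above all others in both panels, and bins past 200 bp lie at the level of the bins out to 2 kb.

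The bound itself cut through a flat part of the distribution. The 5 members just inside it had distances of 496 to 500 bp, on chromosomes 1, 2, 3 and 13, with EMBOW-F −log10 q from 2.18 to 6.57. The 5 summits just outside it had distances of 504 to 512 bp and −log10 q from 2.18 to 9.72.

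Pairs differed in closeness by class. Members with partners in both genotypes had their nearest WDR5 summit at a median of 9.00 bp, against 75.0 bp for WT alone and 91.0 bp for KO alone. In the class with both, all 3 summits stood on 1 base at 4 members and were at most 10 bp apart from first to last at 38. The WT and KO summits were a median of 13.5 bp apart. A nearest of 2 partners is closer than 1 partner by construction, but the WT partner alone was at a median of 14.0 bp and the KO partner at 19.5 bp. Much of that gap went with location, since the class with both lay mostly at or near centromeres, where pairs of every class were closer. In the centromere flanks, defined in the next paragraph, the WT partner was at a median of 10.0 bp for both and 14.5 bp for WT alone, and elsewhere at 61.0 and 90.0 bp. The KO partner was at 10.0 bp for both and 29.0 bp for KO alone in the flanks, and at 68.0 and 105.0 bp elsewhere. For members with 1 genotype, the other genotype's nearest summit was usually far off, at a median of 102.9 kb for WT alone and 113.3 kb for KO alone. It lay within 1 kb at 10 of 313 and 9 of 355.

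The members with partners in both genotypes were concentrated in and around the stretches that stand in for centromeres, mostly inside them. The gene table used has no centromeres, so the longest stretch without any gene on each chromosome stood in for the centromeric stretch, and its flank was the stretch and 5 Mb to either side. On chromosomes 13, 14, 15, 21 and 22 this stretch starts at the first base, and on chromosome 21 it ends at 5.01 Mb and misses a gene-free stretch further along, so there the flank is only a rough stand-in. In the flanks lay 231 of the 814 coinciding summits (28.4%, 25.3 to 31.6%), against 8.49% of all EMBOW-F summits. WDR5 summits as a whole were not there more often, with 6.72% for WT and 6.59% for KO. Of the members with both, 102 of 146 were in a flank (69.9%, 61.7 to 77.2%). For WT alone the count was 74 of 313 (23.6%, 19.0 to 28.7%), and for KO alone 55 of 355 (15.5%, 11.9 to 19.7%). The share for both was above those of the single-genotype classes, and all 3 were above 8.49%. The intervals treat each summit as independent, but neighbouring members are not, and the shares by class were not counted by locus. Inside the gene-free stretches themselves lay 162 members (19.9%), against 1.85% of all EMBOW-F summits. They made up 70.1% of the flank members, against 21.8% for all EMBOW-F summits in the flanks. By class, 83 of 146 members with both lay inside a stretch (56.8%), 44 of 313 with WT alone (14.1%) and 35 of 355 with KO alone (9.86%). Most flank members were thus in the stretches, and the 5 Mb to either side were not compared on their own.

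An EMBOW-F summit in a flank was a member in 2.92% of cases (2.56 to 3.32%), against 0.684% elsewhere (0.630 to 0.742%). For WDR5 summits in a flank, 14.7% of WT and 11.2% of KO had an EMBOW-F partner, against 1.70% and 1.69% elsewhere. Both lists thus met more often in these regions. Flank members were found on 21 of the chromosomes, and those with both genotypes on 16. Their pairs were tight, with a median distance of 11.0 bp in the flanks and 91.0 bp elsewhere. In the flanks the 0 to 500 bp ring held 231 EMBOW-F summits and the next rings of 500 bp held 38, 38 and 32. Elsewhere the same rings held 583, 248, 236 and 248, so the drop was steeper in the flanks. The sources used here do not give how reads that map to several places were treated, and the part of such reads in the flank counts was not tested.

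Some members lay in clusters, and neighbouring members are not independent. Members at most 10 kb apart were merged into 670 loci, of which 588 held 1 member and 82 held the remaining 226. In the flanks 115 of the 231 members shared a locus with another (49.8%), against 111 of 583 elsewhere (19.0%), and the other 116 flank members stood alone. The 12 loci with at least 4 members were in a flank in 10 cases. The largest, chr1:143213226-143249917, held 17 members over 36.7 kb, 13 with both genotypes and 4 with WT alone. It holds 22 EMBOW-F summits in all. The next, chr1:125167893-125183795, held 7 members, 6 with both genotypes. Loci with 6 members lay at chr16:34576476-34595488, chr16:46387934-46400131, chr17:26881417-26885505 and chr2:90380767-90395633. Counted by locus, 148 of 670 lay in a flank (22.1%). The 8.49% of all EMBOW-F summits was lower, but it counts single summits that were not merged into loci.

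The strongest EMBOW-F summits of the genome were among the coinciding ones. Ranked by −log10 q, the first 30 EMBOW-F summits were all in a flank, 25 of the 30 were members and 21 had both genotypes. Of the top 100, 66 were members, and of the top 1000, 181 (18.1%). In the lower-scoring 46551 summits of the list the count was 211 (0.453%). The highest score of the list, 714.1, stood at chr1:125180209, inside the gene-free stretch, with the WT summit 6 bp (−log10 q 430.9) and the KO summit 3 bp (315.6) to its left. The second, at chr1:143214705 with 367.4, had the WT summit 5 bp (121.7) and the KO summit 2 bp (88.9) to its right. The third, at chr3:93470604 with 328.7, had WT at 20 bp (241.6) and KO at 22 bp (244.4) to its left. At these 3 sites every list placed its summit within 22 bp of the EMBOW-F summit, and the scores of all 3 lists were high.

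Coinciding summits scored higher than the EMBOW-F list as a whole. A −log10 q of at least 5 in the EMBOW-F list was found in 415 of the 814 members (51.0%, 47.5 to 54.5%), against 17.1% of all EMBOW-F summits. The share was 67.1% for both genotypes, 51.1% for WT alone and 44.2% for KO alone. It was 68.8% in the flanks and 43.9% elsewhere. The median EMBOW-F score was 8.64 for flank members, 4.51 for members elsewhere and 3.25 for flank summits that were no members. The share of non-members with −log10 q of at least 5 was 15.9% in the flanks and 16.8% elsewhere. At the very top of the list, however, non-members were also in flanks, with 32 of the 34 non-members among the top 100. Members with both genotypes in a flank had medians of 20.6 in EMBOW-F, 14.4 in WT WDR5 and 14.8 in KO WDR5. Outside the flanks the 44 members with both had 4.43, 6.94 and 7.29. Members of 1 genotype had low-scoring WDR5 partners, with a median of 3.34 for WT alone and 3.09 for KO alone. The medians of the whole WT list (6.53) and KO list (6.28) were higher. But 81.0% of these members lay over 100 kb from a gene, where all WDR5 summits had medians of 4.14 in WT and 3.61 in KO. Many scores are tied, since 10889 EMBOW-F summits share the value 3.25, among them 47 members, so ranks in that range carry little order.

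**Figure D2:**
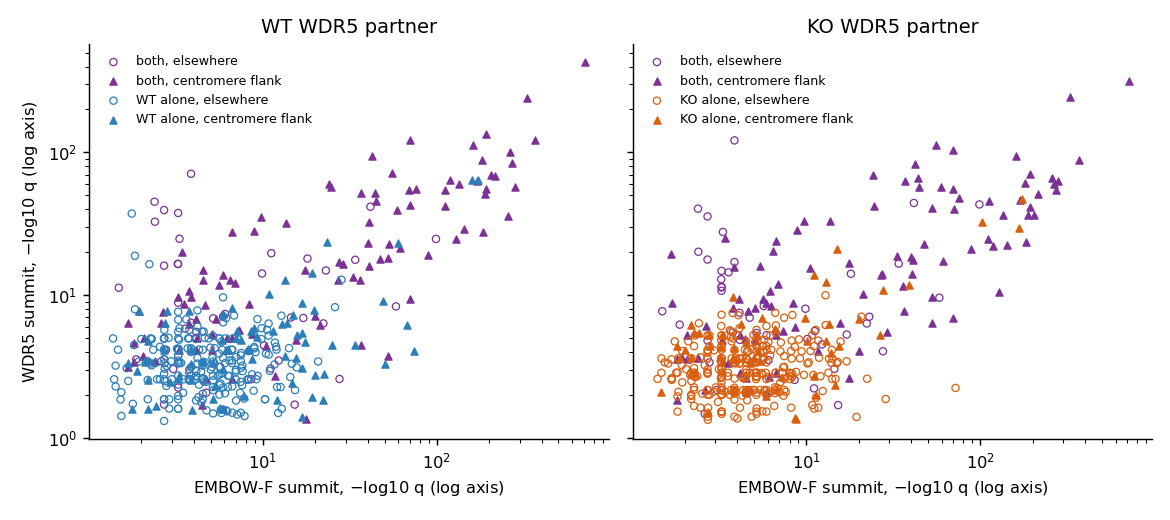
Score of each coinciding EMBOW-F summit (x, −log10 q, log axis) against that of its WDR5 partner (y, −log10 q, log axis) in WT (left) and KO (right); triangles are members in a centromere flank, circles members elsewhere, colours the class. Members with both genotypes in a flank reach the upper right, up to 714.1 in EMBOW-F, and members of 1 genotype crowd at low scores.

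The highest-scoring members of a single genotype were also mostly near centromeres, and some had the other genotype just past the bound. The top WT-alone member, at chr1:125177041 (EMBOW-F 173.1, WT 63.6), had its nearest KO summit 1219 bp away. The top KO-alone member, at chr16:46390046 (EMBOW-F 174.5), had a KO summit at 484 bp (47.4) and a WT summit at 641 bp. For the KO-alone member at chr16:46399516 (167.7) the KO summit was 1 bp away and the WT summit 598 bp. By contrast chr5:49661505 (EMBOW-F 73.9, WT 4.07) had its nearest KO summit 16929 bp to the left. Of the top 5 KO-alone members 1 was far from a centromere, at chr4:189233968 (EMBOW-F 72.0, KO 2.24), 137.4 Mb from the stretch. Among the 30 strongest EMBOW-F summits the 5 that were no members had their nearest WDR5 summit at 610 to 14707 bp.

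From the other direction, 2 of the 100 WT WDR5 summits with the highest scores had an EMBOW-F partner (interval 0.243 to 7.04%), and 1 of the 100 in KO did (0.0253 to 5.45%). These intervals include the shares over all WDR5 summits, 2.57% and 2.32%. The best-ranked WT summit with a partner was rank 80 and the best KO summit rank 96, both at chr1:125180209.

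A larger share of coinciding summits than of all EMBOW-F summits lay over 100 kb from genes, and a larger share also lay at gene ends. Over 100 kb from any protein-coding gene were 660 of the 814 (81.1%, 78.2 to 83.7%), against 71.1% of all EMBOW-F summits. For WDR5 the share was 4.62% in WT and 5.35% in KO. Among members it was 90.0% in the centromere flanks and 77.5% elsewhere, against 66.7% and 71.5% of all EMBOW-F summits there. It was 93.7% for members on chromosome 13 and 76.8% for those on the other chromosomes. Members outside both the flanks and chromosome 13 were not counted separately, so whether the surplus holds among them was not tested. Inside a gene body, more than 1 kb from its ends, were 49 (6.02%), against 14.7% of all EMBOW-F summits. Within 1 kb of a gene end were 23 (2.83%, 1.80 to 4.21%), against 0.375% of all EMBOW-F summits and 61.3% of WT and 55.8% of KO WDR5 summits. Members were chosen for a nearby WDR5 summit, and most WDR5 summits lay at gene ends, so a surplus there is partly built in. The remaining 82 (10.1%) lay up to 100 kb from a gene.

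WDR5 summits far from genes had an EMBOW-F partner far more often than WDR5 summits at gene ends. Of the WT WDR5 summits over 100 kb from a gene, 364 of 816 had an EMBOW-F summit within 500 bp (44.6%, 41.2 to 48.1%), and of the KO summits 399 of 1126 (35.4%, 32.6 to 38.3%). At gene ends the counts were 18 of 10827 (0.166%) and 18 of 11754 (0.153%). Outside the centromere flanks the shares over 100 kb from a gene were 41.3% and 33.8%. EMBOW-F summits are themselves dense far from genes, so distances beyond the bound are given as well. Only the nearest EMBOW-F summit was counted, so a WDR5 summit with a close one could not count further out. Outside the flanks and over 100 kb from a gene, 114 of 499 WT WDR5 summits had the nearest EMBOW-F summit within 100 bp and 26 had it at 501 to 1000 bp. For KO the counts were 133 and 48 of 745. At 201 to 500 bp the counts were 51 for WT and 70 for KO. At gene ends outside the flanks 11 of 10283 WT summits were within 100 bp and 5 at 501 to 1000 bp, and for KO 9 and 6 of 11154. The first 100 bp thus held more summits than the wider bin in both places. Far from genes the wider bin is lowered by the many closer summits, so it is no background level. At 501 to 1000 bp the WT share was already 5.21% far from genes and 0.0486% at gene ends, so the places differed in EMBOW-F density beyond the bound as well. WDR5 summits over 100 kb from a gene had low scores, with medians of 4.14 in WT and 3.61 in KO.

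**Figure D3:**
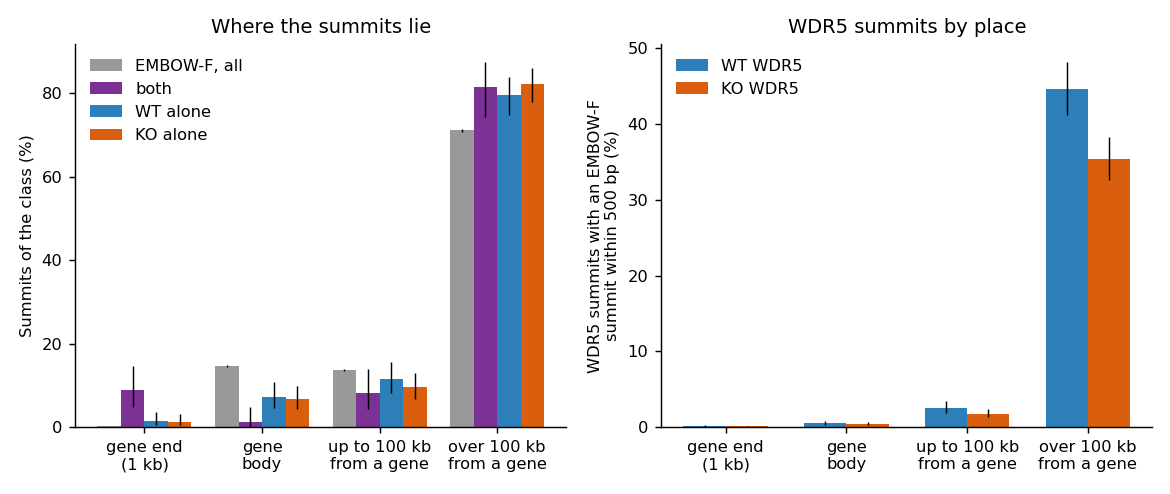
Left, percent of all EMBOW-F summits (grey) and of the members of each class by distance to protein-coding genes. Right, percent of WT and KO WDR5 summits in each place with an EMBOW-F summit within 500 bp. Error bars are exact 95% binomial intervals; the shares on the right rise from under 1% at gene ends to 44.6% (WT) and 35.4% (KO) over 100 kb from a gene.

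Chromosome 13 held more members than any other chromosome, and almost none of them near its centromere. It carried 207 of the 814 (25.4%), against 7.28% of all EMBOW-F summits. Of its EMBOW-F summits 3.05% were members, against 0.703% on the other chromosomes together. The class with both genotypes had 19 of the 207, WT alone 87 and KO alone 101. Only 1 was in a flank, but 6778 of the chromosome's 6779 EMBOW-F summits lay outside the flank, so hardly any member could lie there. Of the 207, 194 (93.7%) were over 100 kb from a gene. They fell in 2 blocks, with 104 members from 60 to 70 Mb and 86 from 80 to 90 Mb, while the 10 Mb between held 8. The lists differ there in density, with 2223 EMBOW-F, 78 WT and 102 KO summits in the first block and 3516, 67 and 69 in the second. The 10 Mb between held fewer summits of every list, 427, 44 and 44. Of the WDR5 summits on chromosome 13 over 100 kb from a gene, 95 of 148 in WT (64.2%) and 114 of 173 in KO (65.9%) had an EMBOW-F partner, against 40.3% and 29.9% on the other chromosomes. Outside the flanks 128 of 206 members on chromosome 13 had a WDR5 summit within 100 bp (62.1%, 55.1 to 68.8%), against 179 of 377 on the other chromosomes (47.5%, 42.3 to 52.7%). With flank members the shares were 62.3% and 62.4%. An EMBOW-F −log10 q of at least 5 was found in 67.1% of its members and in 45.5% of members on the other chromosomes.

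The share of EMBOW-F summits that were members varied widely between chromosomes, and several with few EMBOW-F summits had high shares. On chromosome 17, 10 of 78 EMBOW-F summits were members (12.8%), 9 of them in a flank. On chromosome 19 it was 19 of 225 (8.44%), 18 of them in a flank. Chromosome 22 had 13 of 206 (6.31%), 10 of them in the flank. Chromosome 20 had 8 of 127 (6.30%), all 8 in the flank, and chromosome 16 had 16 of 422 (3.79%), 15 in the flank. Few EMBOW-F summits did not always go with a high share, since chromosome 15 had 1 member of 319 (0.313%), outside the flank. Chromosome 1 had 124 members, 47 of them in the flank. The lowest share was on the X chromosome, with 10 of 5707 (0.175%).

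**Figure D4:**
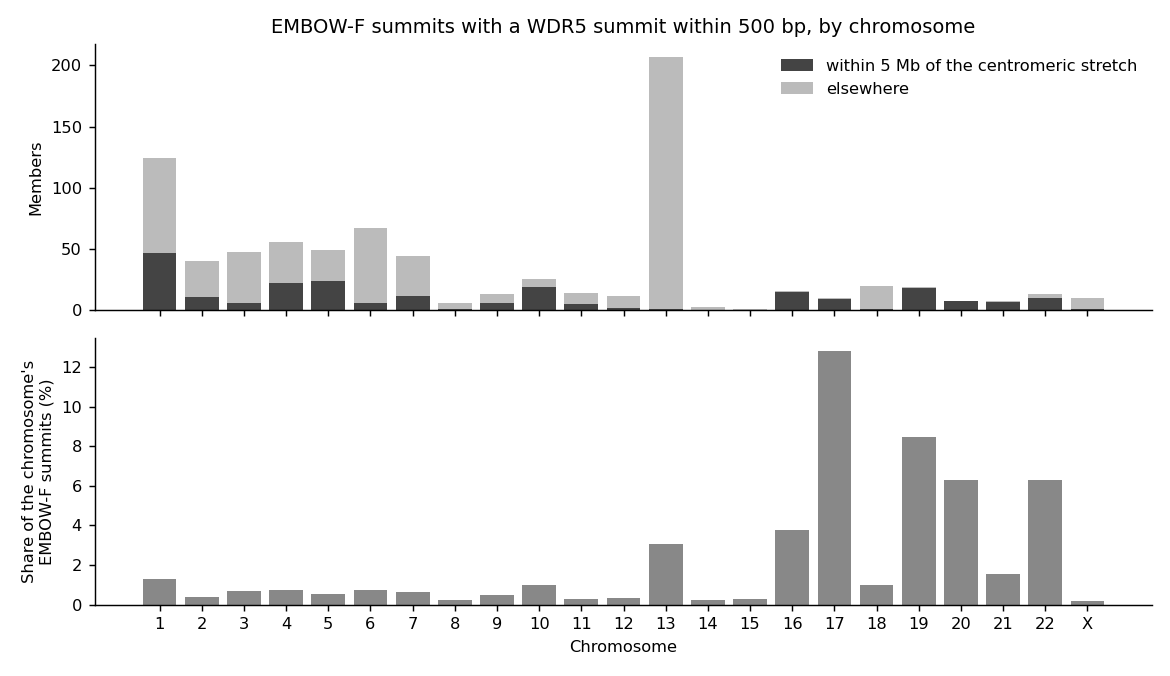
Coinciding EMBOW-F summits per chromosome (top, number, split by position in a centromere flank) and as a percent of the chromosome's EMBOW-F summits (bottom). Chromosome 13 has the most members, 207, nearly all outside the flank, and chromosome 17 has the highest share, 12.8%.

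Members at gene ends had EMBOW-F scores near the middle of their list, unlike members near centromeres. Scores rank summits within a list and are not on the same scale in different lists. The 23 members within 1 kb of a gene end belonged to 22 protein-coding genes, and 19 lay inside the gene. Their EMBOW-F −log10 q ran from 1.48 to 6.66 with a median of 3.25, the median of the whole list. Partners in both genotypes were present at 13, in WT alone at 5 and in KO alone at 5. At the 13 the WDR5 medians were 16.5 in WT and 14.8 in KO, above those of the WDR5 lists. Flank members with both genotypes had similar WDR5 medians, 14.4 in WT and 14.8 in KO. None of the 23 reached −log10 q of 5 in both EMBOW-F and a partner.

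The 13 with both genotypes were HDX, E2F2, FEM1C, MTMR1, TASOR2, LIPT2, SLAIN1, SPEF2, TOP2B, HNRNPDL, TULP4, EZH2 and H6PD. E2F2, a transcription factor of the cell cycle, had the strongest WDR5 partners, with EMBOW-F at chr1:23531057 (3.86), WT 6 bp to its left (70.9) and KO 15 bp to its right (121.4). EZH2, the methyltransferase of Polycomb repressive complex 2, had EMBOW-F at chr7:148884121 (2.39), WT 29 bp to its left (32.7) and KO 487 bp to its right (20.1). At TOP2B, whose window is shown above, the scores were 3.24 in EMBOW-F, 16.6 in WT and 12.9 in KO. TASOR2, a relative of a subunit of the HUSH silencing complex, had 3.31, 24.8 and 27.7. HNRNPDL, an RNA-binding protein, had 2.70, 16.1 and 17.8. In each of these 5 genes EMBOW-F had the lowest score of the 3 lists, though scores of different lists are not on the same scale. LIPT2, which attaches lipoate to mitochondrial enzymes, had the closest WT partner, 1 bp away. TULP4, a member of the tubby-like family, had some of the widest pairs, 447 bp to WT and 433 bp to KO.

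The 5 members with WT alone were at ZNF479, ZNF595 (2 summits), EPM2A and USP24, and the 5 with KO alone at OR4A47, CRISP2, OR10S1, CHGA and TWIST1. ZNF479 and ZNF595 encode zinc-finger proteins, and OR4A47 and OR10S1 olfactory receptors. At USP24, a deubiquitinase, the WT summit was 66 bp away (18.9) and the KO summit 622 bp. At EPM2A, which encodes the glycogen phosphatase laforin, WT was at 345 bp (16.5) and KO at 607 bp. At TWIST1, a basic helix-loop-helix transcription factor, KO was 1 bp away (5.22) and WT 546 bp. For these 3 genes the class turned on the 500 bp bound. At OR4A47 the EMBOW-F score was the highest of the gene ends, 6.66, and the KO partner was weak, 2.16. At CRISP2 the scores were 5.64 in EMBOW-F and 3.61 in KO. At CHGA, which encodes the secretory granule protein chromogranin A, they were 3.72 and 4.74.

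**Figure D5:**
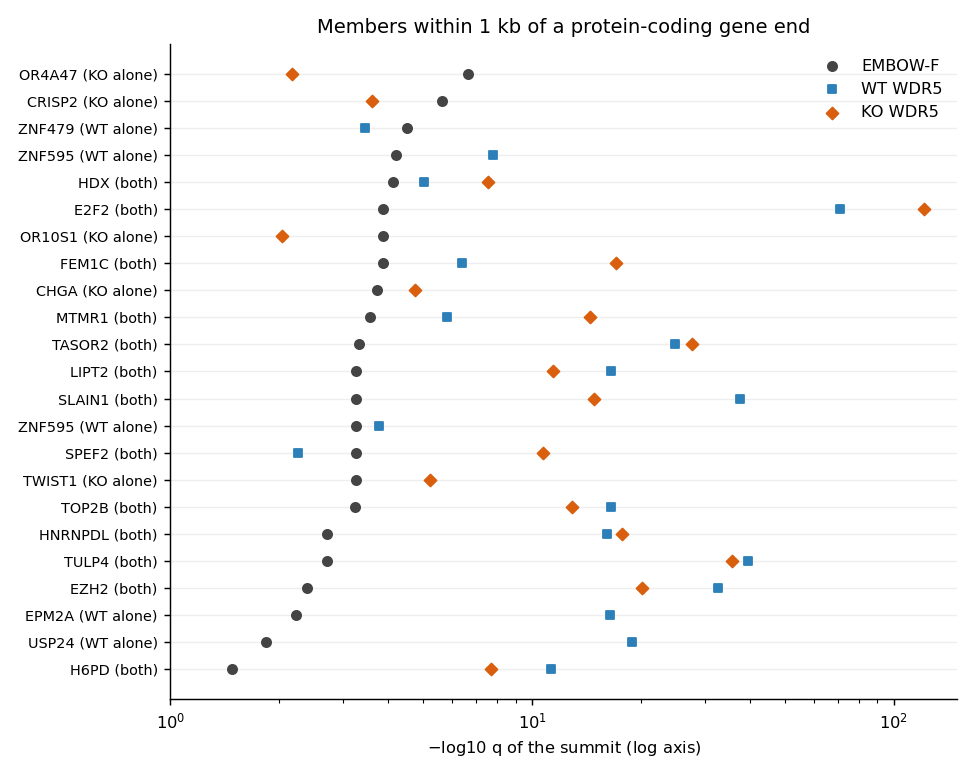
Score (−log10 q, log axis) of the EMBOW-F summit and of its WT and KO WDR5 partners for the 23 members at protein-coding gene ends (1 kb), ordered by EMBOW-F score, with the class in brackets. EMBOW-F lies between 1.48 and 6.66, and most WDR5 partners of members with both genotypes lie to its right, up to 121.4 at E2F2.

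Of the 23 members at protein-coding gene ends, 4 lay within 1 kb of a 5′ end in the authors' deposited list of 18665 transcripts. Over all 814 members, most of them far from genes, 5 lay that close (0.614%, 0.200 to 1.43%). The share was 0.0655% of all EMBOW-F summits, 2.95% of WT and 10.5% of KO WDR5 summits. The 4 at gene ends were at OR10S1, CHGA and CRISP2, with KO alone, and at EPM2A, with WT alone. The other was at chr13:62212065, with KO alone.

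Members inside genes lay mostly in long genes, as did other EMBOW-F summits inside genes. The 49 were in 39 genes whose median length was 407.9 kb, against 24.5 kb for all protein-coding genes, and 41 of the 49 members were in genes over 100 kb (83.7%, 70.3 to 92.7%). Of the EMBOW-F gene-body summits that were no members, 92.2% were in such genes. The highest EMBOW-F score inside a gene was 8.31, at ZNF595 with a KO summit 40 bp away (7.26). KLHL1, an actin-binding Kelch-like protein on chromosome 13, had 7.80 with WT 91 bp away (1.88). KHDRBS2, an RNA-binding protein, had 7.27 with KO 131 bp away (2.67). CENPW, a subunit of the inner kinetochore, had 6.05 with KO 362 bp away (4.69). GPC5, a heparan sulfate proteoglycan, scored 5.28 with WT 50 bp away (4.25). PCDH15, a protocadherin of hair cells, scored 4.95 with KO 450 bp away (2.16), CNTNAP2, a neurexin-family adhesion protein, 4.72 with KO 114 bp away (2.16), and DPYD, which breaks down pyrimidines, 4.63 with WT 450 bp away (5.02). These genes were picked for high EMBOW-F scores. Over all 49 the medians were 3.25 in EMBOW-F, 3.31 in the WT partners and 2.81 in the KO partners.

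Gene families were counted whatever their values. Of 387 olfactory receptor genes, 2 had a member at an end and 1 in the body, OR2A5. Any EMBOW-F summit at an end was found at 87 of these receptor genes and at 275 of all protein-coding genes, so most olfactory receptor ends with EMBOW-F had no WDR5 summit within 500 bp. Of 510 zinc-finger genes it was 2 and 3, of 53 clustered protocadherins 0 and 1, and of 29 long neuronal genes 0 and 3 (CNTNAP2, GPC5 and PCDH15). For comparison, 22 of all 19821 protein-coding genes had a member at an end and 39 in the body. The 80 ribosomal protein genes, the 17 genes of COMPASS subunits and the 7 mitosis genes had 0 members at an end and 0 in the body. The same was true of the NBPF, GOLGA6 and GOLGA8, USP17L and FAM families. None of these genes had any EMBOW-F summit at an end or in the body, so none could have a member. The POTE and ANKRD families also had 0 members, with an EMBOW-F summit in the body of 2 and 5 genes and 0 at an end.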

How the data were processed

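Chromatin immunoprecipitation with sequencing was done in 1 library per group. Bowtie2 2.4.5, MACS2 2.2.7.1 and deepTools 3.5.1 are named in the submitters' processing notes, with build hg38 and no role or setting. The authors deposited summit lists with a −log10 q score, whose unit was read from the values, the lowest being 1.30, that of a q of 0.05. The EMBOW-F list was matched to the anti-FLAG sample by name. The sources used here do not give which input served each list.

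Each EMBOW-F summit was paired with the nearest WT and KO WDR5 summit (Python 3.11.15). Genes and windows came from RefSeq GRCh38.p14, and 679 scaffold rows were dropped, leaving 58419 genes, 19821 of them protein-coding. On simulated data 200 of 200 planted partners were recovered. Intervals are exact (Clopper-Pearson, 95%). Named regions are the 5 highest EMBOW-F scores per class, the 5 loci with most members, the best-ranked WDR5 partners and the members nearest the bound; named genes are all with a member within 1 kb of an end and the 10 with the highest-scoring member in the gene body, some of which are not reported here. The members and gene lists were chosen with earlier results of these data known.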

Additional observations from a re-analysis of the deposited data

How the results depend on the processing

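Of 45 alternative values 24 stayed near the reported value and 21 moved. No paired analysis was possible because each group has 1 library. Within 100 bp, members with WT alone numbered 195 and with KO alone 201. With −log10 q of at least 5 in all 3 lists, both genotypes numbered 74, WT alone 41 and KO alone 38. With the KO list shortened to the WT length, KO alone numbered 201 and WT alone 327, so which of these classes is larger changes with the list length and with the score limit.

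The flank share was 31.7% with flanks of 10 Mb, 22.1% by merged locus, 39.6% within 100 bp, 32.6% within 250 bp and 24.5% within 1000 bp. It was 71.9% of the 153 members with −log10 q of at least 5 in EMBOW-F and the partner, and 37.9% without chromosome 13. The gene-end share was 4.42% with a window of 5 kb, 7.37% with genes of all kinds and 0% of the 153 higher-scoring members. Most of those 153 were in a flank, where 0.866% of members lay at a gene end. The 0% therefore cannot tell whether the surplus of gene ends over all EMBOW-F summits (0.375%) depends on score. The share with EMBOW-F −log10 q of at least 5 was 45.5% without chromosome 13, and 41.3% of members were in the highest 10% of the list. The median distance was 42.0 bp within 250 bp, 129.0 bp within 1000 bp, and 72.5 bp with 1 pair per locus. Leaving out chromosome 13, and counting every gene-free stretch over 2 Mb (28.9% in a flank), were chosen after seeing the data. Stretches without genes only stand in for centromeres.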

Other observations

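Counting genes of every kind, 60 members lay within 1 kb of a gene end, and 19 of these were nearest to a protein-coding gene, 18 to a long noncoding RNA gene and 16 to a pseudogene. Some of these had EMBOW-F scores above 6.66, the highest at a protein-coding end. ROCK1P1, a transcribed pseudogene near the end of chromosome 18, had 2 members with both genotypes, at chr18:108458 (EMBOW-F 41.5, WT 41.7, KO 44.2) and chr18:109169 (23.0, 14.9 and 7.06). FAM230E and FAM230F, related noncoding genes on chromosome 22, had 18.0 and 11.2 in EMBOW-F, each with both genotypes. DUX4L26, a pseudogene of the DUX4 family, had 9.88 in EMBOW-F, 14.2 in WT and 8.03 in KO. The FAM230 and DUX4 families have near-identical copies elsewhere, and the part of reads shared with a copy was not tested.

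The 1 EMBOW-F summit near the end of a ribosomal RNA gene was a member, at RNA28SN3, a 28S ribosomal RNA gene on chromosome 21 (where the stand-in for the centromere is poor), with 5.62 in EMBOW-F, 11.9 in WT and 9.36 in KO. MIR17HG, the host gene of a microRNA cluster, had 2.38 in EMBOW-F, 45.2 in WT and 40.3 in KO. The EMBOW-F score was below the median of its list and both WDR5 scores were above the medians of theirs.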
